A study of Mus musculus with 2 samples.

Results

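The immunoglobulin A that coats mucosal surfaces is made in one cell type and carried out by another, and the 9 genes described here cover both sides of that route. Igj, Mzb1, Pou2af1 and Cd79a are genes of the B lineage. Derl3, Prdm1, Sdc1 and Xbp1 are used by plasma cells and also by secretory epithelium or other cells. Pigr encodes the epithelial receptor that carries polymeric immunoglobulin across the cell. They were selected by symbol from a table of 22740 genes, with their levels and their ratio between the libraries already known, so both are given as a description and without a test. RNA was sequenced from the whole uterus of 2 C57BL/6 mice on day 4 of pregnancy, with 1 library per animal, called uterus 1 (title WT1) and uterus 2 (title WT2). Both libraries belong to 1 group, with no treatment or genotype contrast in the labels. A ratio between them therefore compares 2 animals and has no replicate check. The tissue was not dissected into layers, so in these values more cells of a type and more RNA per cell cannot be told apart.

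Plasma cells are the end stage of the B lineage and secrete antibody. In plasma cells that make polymeric immunoglobulin A or M, the J chain encoded by Igj joins the antibody units, and this joined form is what the polymeric immunoglobulin receptor binds at the basal side of an epithelial cell. The receptor crosses the cell with its cargo and is cut at the luminal surface, where its outer part stays on the antibody as secretory component. The load of antibody on the endoplasmic reticulum of a plasma cell is handled with the help of the transcription factor Xbp1, which also serves other secretory cells. In the rodent uterus, immunoglobulin A and secretory component are known to vary with oestrogen.

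Levels are the authors' RPKM, which are reads scaled to transcript length and library size. The reads behind each value were recovered from the values and annotated transcript lengths. The totals that turned RPKM into reads were 3834174 for uterus 1 and 4256101 for uterus 2. Intervals are 95% counting intervals (exact Poisson for a level, exact Clopper-Pearson for a ratio), and they cover counting error only. Log2 ratios are uterus 2 over uterus 1 after adding 0.1 RPKM to both, which understates the ratio of low genes. All 9 genes were at 1 RPKM or more in both uteri, as were 58.4% of all genes. A search by symbol for immunoglobulin heavy and light chain genes returned Ighmbp2 alone, which encodes no antibody chain. Antibody chain transcripts could therefore not be described. As a check of the tissue label, the uterine genes Hoxa10, Pgr and Esr1 were at 114, 72 and 103 RPKM on average. No other row of the annotated table overlapped any of the 9 genes.

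Among the B lineage genes, Igj stood far above the others in level, and its ratio was the highest of the 4, although the intervals of Cd79a and Pou2af1 reached its own. Igj (NM_152839, mouse build mm9, chromosome 5, 88948834 to 88956922, minus strand) measured 53.2 RPKM in uterus 1, on 429 reads, against 229.7 RPKM in uterus 2, on 2055 reads. Its ratio was 4.32-fold, with a counting interval of 3.89 to 4.80. It ranked 1105 of all genes by level in uterus 1 and 175 in uterus 2. Among 470 genes averaging 100 RPKM or more, 0.213% were at least 2-fold higher in uterus 2, and Igj was the single gene in that count. Igj reached this class through uterus 2 alone, so nothing is read from that share. Its mean of 141 ± 125 RPKM (SD, n = 2) therefore describes neither animal.

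Mzb1 (NM_027222, chromosome 18, 35806919 to 35809021, minus strand) encodes an endoplasmic reticulum protein of marginal zone B cells and plasma cells that helps antibody assembly. It measured 5.47 RPKM in uterus 1 against 8.56 RPKM in uterus 2, on 19 and 33 reads. Its ratio was 1.56-fold (0.864 to 2.91), and the level intervals of the uteri overlapped. Pou2af1 (NM_011136, chromosome 9, 51021795 to 51048184, plus strand) encodes the B cell coactivator of octamer-binding factors. It lay at 1.32 RPKM on 13 reads and 2.66 RPKM on 29 reads, a 2.01-fold ratio (1.01 to 4.21). Cd79a (NM_007655, chromosome 7, 25682530 to 25687216, plus strand) encodes a signalling chain of the B cell receptor. It lay at 1.18 RPKM on 6 reads and 2.83 RPKM on 16 reads, a 2.40-fold ratio (0.893 to 7.50). All 4 B lineage genes had the higher value in uterus 2, with log2 ratios of 2.11 for Igj, 1.20 for Cd79a, 0.96 for Pou2af1 and 0.64 for Mzb1. Over all genes averaging 1 RPKM or more, 50.1% were higher in uterus 2. For Mzb1 and Cd79a a ratio of 1 lay inside the counting interval, so a difference was not detectable at this depth.

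Of the 9 genes, 2 were at least 2-fold higher in uterus 2 on the log2 scale, Igj and Cd79a, and none was 2-fold lower. Over the whole table, a share of 2.60% of 13647 genes were 2-fold apart in either direction and 1.18% were 2-fold higher in uterus 2. Among genes with a mean from 1 to 10 RPKM, where Cd79a, Pou2af1, Derl3, Mzb1 and Pigr lie, the share 2-fold higher was 2.32%. Because the genes were selected with these ratios known, nothing is read from the count. The count was 3 with a pseudocount of 0.01 RPKM and 1 with a pseudocount of 1 RPKM, and Igj alone was in all of them. The whole table moved the same way, with 388 genes 2-fold apart at 0.01 RPKM, 355 at 0.1 RPKM and 153 at 1 RPKM.

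**Figure D1:**
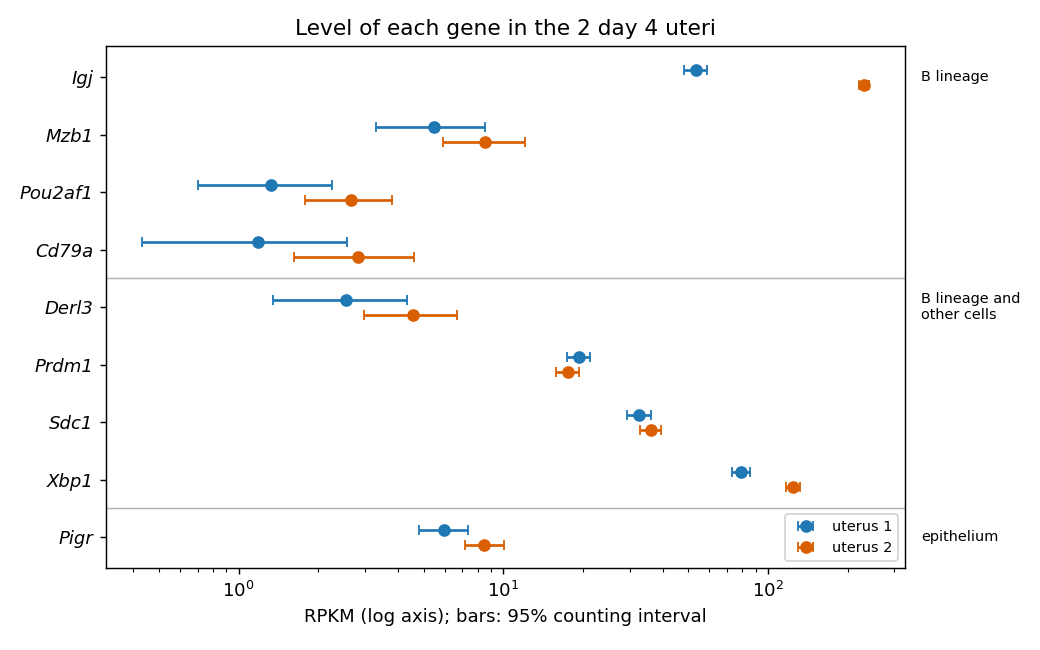
Level of each gene in RPKM (log axis) in uterus 1 (blue) and uterus 2 (orange), with bars for the 95% counting interval. Igj lay at 53.2 and 229.7 RPKM with intervals far apart, whereas the intervals of Mzb1, Pou2af1, Cd79a and Derl3, among others, overlapped between the uteri.

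Of the 4 genes shared with other cell types, Xbp1, Derl3 and Sdc1 had the higher value in uterus 2 and Prdm1 the lower. For Xbp1 alone, a ratio of 1 lay outside the counting interval. Xbp1 (NM_001271730, chromosome 11, 5420644 to 5425996, plus strand), the transcription factor of the secretory programme, measured 79.0 RPKM in uterus 1 against 124 RPKM in uterus 2 on 681 and 1188 reads. Its ratio was 1.57-fold (1.43 to 1.73), and the level intervals did not overlap. RPKM does not tell the spliced, active form of Xbp1 mRNA from the unspliced form. Derl3 (NM_024440, chromosome 10, 75356143 to 75358686, plus strand) encodes a component of the machinery that removes misfolded proteins from the endoplasmic reticulum. It lay at 2.54 RPKM on 13 reads and 4.57 RPKM on 26 reads, a 1.80-fold ratio (0.893 to 3.82).

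Prdm1 (NM_007548, chromosome 10, 44156981 to 44178493, minus strand) encodes Blimp-1, the repressor that drives plasma cell differentiation and acts in other lineages too. It measured 19.3 RPKM in uterus 1 against 17.5 RPKM in uterus 2 on 380 and 383 reads, a 0.908-fold ratio (0.786 to 1.05). Sdc1 (NM_011519, chromosome 12, 8778202 to 8800493, plus strand) encodes syndecan-1, a surface proteoglycan of epithelium and of plasma cells (CD138). It lay at 32.5 and 36.1 RPKM on 381 and 469 reads, a 1.11-fold ratio (0.967 to 1.27). The interval of Sdc1 ended below the interval of Igj, and so did that of Prdm1. Both genes were read far more deeply than the 3 lower B lineage genes.

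On the epithelial side, Pigr (NM_011082, chromosome 1, 132723261 to 132748826, plus strand) measured 5.96 RPKM in uterus 1 against 8.49 RPKM in uterus 2, on 88 and 139 reads. Its ratio was 1.42-fold (1.08 to 1.88), a log2 ratio of 0.50. The level intervals, 4.78 to 7.35 RPKM and 7.13 to 10.02 RPKM, overlapped narrowly. Relative to Epcam, an adhesion molecule of epithelial cells, Pigr RPKM was 0.225 in uterus 1 and 0.253 in uterus 2. Relative to Krt8, another epithelial gene, Pigr RPKM was 0.0860 and 0.108. Both reference genes were themselves higher in uterus 2, whereas 8 of the 14 epithelial genes listed were lower. Igj RPKM was 8.93 times Pigr RPKM in uterus 1 and 27.1 times in uterus 2, so the J chain transcript exceeded the receptor transcript in both animals.

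**Figure D2:**
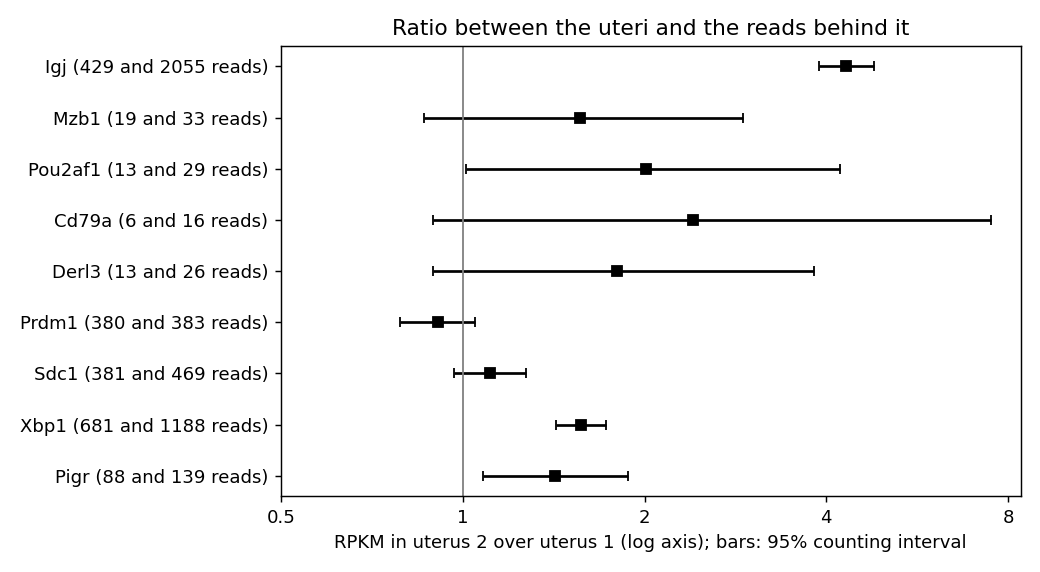
RPKM in uterus 2 over uterus 1 for each gene (log axis) with its 95% counting interval, and the recovered reads in uterus 1 and uterus 2 beside each name. Igj lies at 4.32-fold, and the only other intervals that reach its own are those of Cd79a (6 and 16 reads) and Pou2af1 (13 and 29 reads).

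Ordered by mean level, Igj was followed by Xbp1 at 102 ± 31.9 RPKM, Sdc1 at 34.3 ± 2.50 RPKM and Prdm1 at 18.4 ± 1.25 RPKM (SD, n = 2 for each). Pigr at 7.22 ± 1.78 RPKM and Mzb1 at 7.01 ± 2.18 RPKM came next, then Derl3 at 3.56 ± 1.44 RPKM, Cd79a at 2.01 ± 1.17 RPKM and Pou2af1 at 1.99 ± 0.943 RPKM. Neighbours in this order whose ranges over the uteri overlapped were Igj and Xbp1, Pigr and Mzb1, Derl3 and Cd79a, and Cd79a and Pou2af1. Igj was 0.673 times Xbp1 in uterus 1 and 1.85 times Xbp1 in uterus 2. Igj was 9.73 times Mzb1 in uterus 1 and 26.8 times Mzb1 in uterus 2. Xbp1 was 31.1 times Derl3 in uterus 1 and 27.2 times in uterus 2. Mzb1 rests on 19 and 33 reads and Derl3 on 13 and 26. No interval was made for these ratios of genes, so which of them moved less was not tested.

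**Figure D3:**
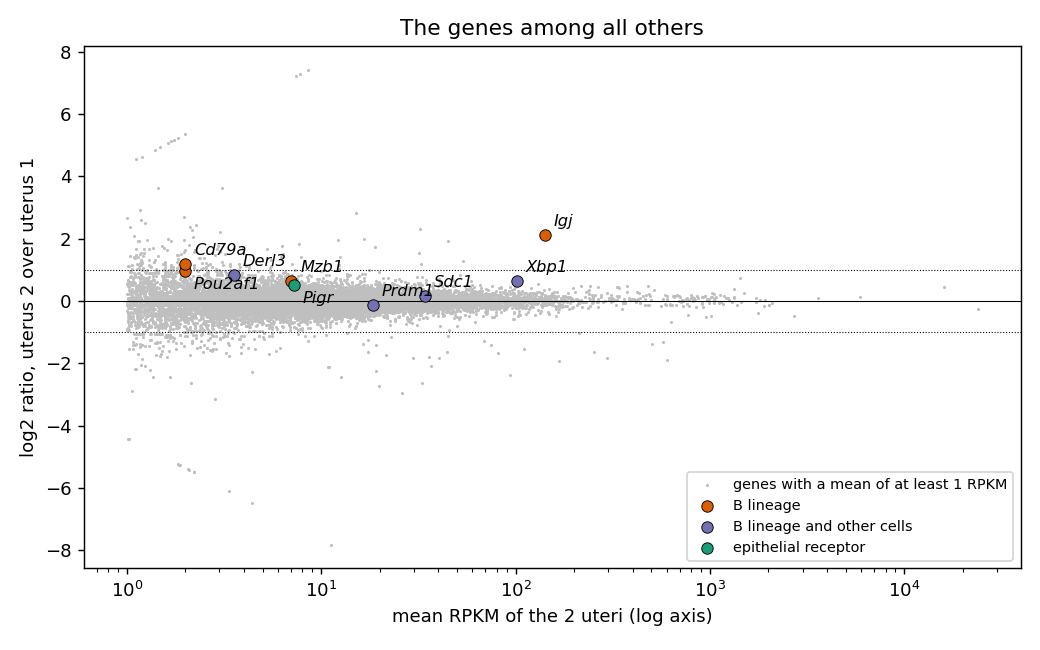
Mean RPKM of the uteri (log axis) against the log2 ratio of uterus 2 over uterus 1 for the 13647 genes averaging 1 RPKM or more (grey), with the 9 genes in colour and dotted lines at 2-fold. Igj is drawn at a mean of 141 RPKM, which uterus 2 lifts above its 53.2 RPKM in uterus 1, and Cd79a, Pou2af1 and Derl3 lie where low counts spread the cloud.

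Promoters are shown for Igj, which had the highest ratio, and for the 3 genes whose window held a searched motif, so the set was chosen after the search. Each line holds the 250 bases before the annotated start, 5′ to 3′ on the gene's strand, from RefSeq on build GRCm38.p6. Capitals mark exact matches on either strand to 4 motifs that were picked after the sequences had been read. These are the octamer ATGCAAAT, the unfolded protein response element TGACGTGG, the E-box CACGTG, and the endoplasmic reticulum stress element, written as CCAAT, any 9 bases and CCACG. Matches to different motifs did not overlap. The windows are Igj at chr5:88527898-88528147, minus strand, Pou2af1 at chr9:51213440-51213689, plus strand, Derl3 at chr10:75893148-75893397, plus strand, and Pigr at chr1:130826434-130826683, plus strand.
Igj: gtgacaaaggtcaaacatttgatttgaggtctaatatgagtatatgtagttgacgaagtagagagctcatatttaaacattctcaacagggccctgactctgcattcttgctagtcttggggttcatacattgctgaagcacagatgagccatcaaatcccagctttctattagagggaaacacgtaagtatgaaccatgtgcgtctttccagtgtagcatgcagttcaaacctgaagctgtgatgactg
Pou2af1: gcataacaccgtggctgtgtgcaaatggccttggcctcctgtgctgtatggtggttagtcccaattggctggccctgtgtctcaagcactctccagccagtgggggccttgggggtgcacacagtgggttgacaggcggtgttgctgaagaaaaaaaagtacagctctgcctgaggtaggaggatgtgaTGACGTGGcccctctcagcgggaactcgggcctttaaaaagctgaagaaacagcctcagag
Derl3: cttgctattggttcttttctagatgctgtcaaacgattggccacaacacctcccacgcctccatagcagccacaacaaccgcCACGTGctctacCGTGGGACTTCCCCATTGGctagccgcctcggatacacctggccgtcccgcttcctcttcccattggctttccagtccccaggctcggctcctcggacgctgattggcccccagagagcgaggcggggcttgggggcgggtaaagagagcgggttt
Pigr: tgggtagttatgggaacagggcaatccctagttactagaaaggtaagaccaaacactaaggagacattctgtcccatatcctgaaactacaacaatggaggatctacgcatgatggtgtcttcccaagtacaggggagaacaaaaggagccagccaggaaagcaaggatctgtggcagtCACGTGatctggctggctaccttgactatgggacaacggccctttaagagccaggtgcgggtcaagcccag

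The Derl3 window held the stress element in reverse orientation, 156 to 138 bases before the start, and an E-box 168 to 163 bases before it. The stress element was present in 0.113% of 32851 promoter windows of this length. The Pou2af1 window held the unfolded protein response element 61 to 54 bases before the start, a motif found in 0.563% of windows. The Pigr window held an E-box 71 to 66 bases before the start, a motif found in 6.02% of windows. None of the 4 motifs was found in the Igj, Cd79a, Prdm1, Sdc1 or Xbp1 windows, and the octamer, present in 1.60% of windows, was in none of the 8 windows searched. The Mzb1 window was not used here. A match is a description of letters, and no binding was measured.

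Markers of B cells other than the 4 genes above were low. Of 18 B cell genes, 12 had the higher value in uterus 2, 4 the lower value and 2 were listed at 0 in both, with a median log2 ratio of 0.25. The median was 0.46 over the 7 that averaged 1 RPKM or more (all such genes, 0.0007), a filter that Cd79b and Cd22 passed through uterus 2, so nothing is read from these 7. The summed level of the 18 was 20.2 RPKM in uterus 1 and 27.8 RPKM in uterus 2. Cd79b, the partner chain of Cd79a, lay at 0.653 and 2.75 RPKM on 3 and 14 reads. Cd37, a surface protein of mature B cells, lay at 1.91 and 3.83 RPKM on 9 and 20 reads. Cd72, an inhibitory receptor, was highest of the list at 5.90 and 6.10 RPKM, and Blnk, an adaptor of the B cell receptor that myeloid cells also use, followed at 4.10 and 5.27 RPKM. Defining B cell genes were near the floor: Ms4a1 (CD20) held 3 reads in each uterus, and Pax5 was listed at 0 in uterus 1 with 1 read in uterus 2. Vpreb3 and Faim3 were listed at 0 in both uteri.

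Of 12 further plasma cell genes, 10 averaged 1 RPKM or more, with 8 higher and 2 lower in uterus 2 and a median log2 ratio of 0.13, against 10 higher, 2 lower and a median of 0.37 over all 12. Irf4 and Slamf7 passed this filter through uterus 2, so nothing is read from these counts. Irf4, the transcription factor that acts with Blimp-1 in plasma cell differentiation, lay at 0.947 RPKM on 17 reads in uterus 1 and 2.21 RPKM on 44 reads in uterus 2, a 2.33-fold ratio (1.31 to 4.35). Tnfrsf17 (BCMA) and Tnfrsf13b (TACI), receptors for the plasma cell survival factors, were listed at 0 in uterus 1 and held 4 reads each in uterus 2. Sec11c, a signal peptidase subunit, lay at 26.8 and 42.7 RPKM, a 1.60-fold ratio (1.20 to 2.13). Txndc5, a disulfide isomerase, was highest at 136 and 145 RPKM, a 1.07-fold ratio (0.993 to 1.15). Fkbp11, a chaperone of secretory cells, lay at 23.0 and 19.8 RPKM, a 0.859-fold ratio (0.597 to 1.24).

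The wider secretory pathway and unfolded protein response were measured on many reads. All 17 genes averaged 1 RPKM or more, 14 were higher and 3 lower in uterus 2, and their median log2 ratio was 0.15. Over all genes at that level, 50.1% were higher and the median was 0.0007. The list was chosen with earlier results known, so nothing more is read from this count. Dnajb9, a chaperone gene that Xbp1 induces, differed most, at 11.6 and 21.0 RPKM on 83 and 167 reads, a 1.81-fold ratio (1.38 to 2.39). Dnajc3 lay at 33.8 and 49.2 RPKM, a 1.46-fold ratio (1.32 to 1.61). Hspa5, the main chaperone of the endoplasmic reticulum, lay at 282 and 383 RPKM, a 1.36-fold ratio (1.29 to 1.42). Ssr3, a translocon subunit, lay at 145 and 158 RPKM, and Pdia6, a disulfide isomerase, at 119 and 136 RPKM. Ern1, the sensor that splices Xbp1 mRNA, lay at 11.1 and 11.3 RPKM, and Sec61a1, the translocon channel, at 91.1 and 85.4 RPKM. Epithelial and stromal cells use these genes as well, and which cells carried the difference was not tested.

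**Figure D4:**
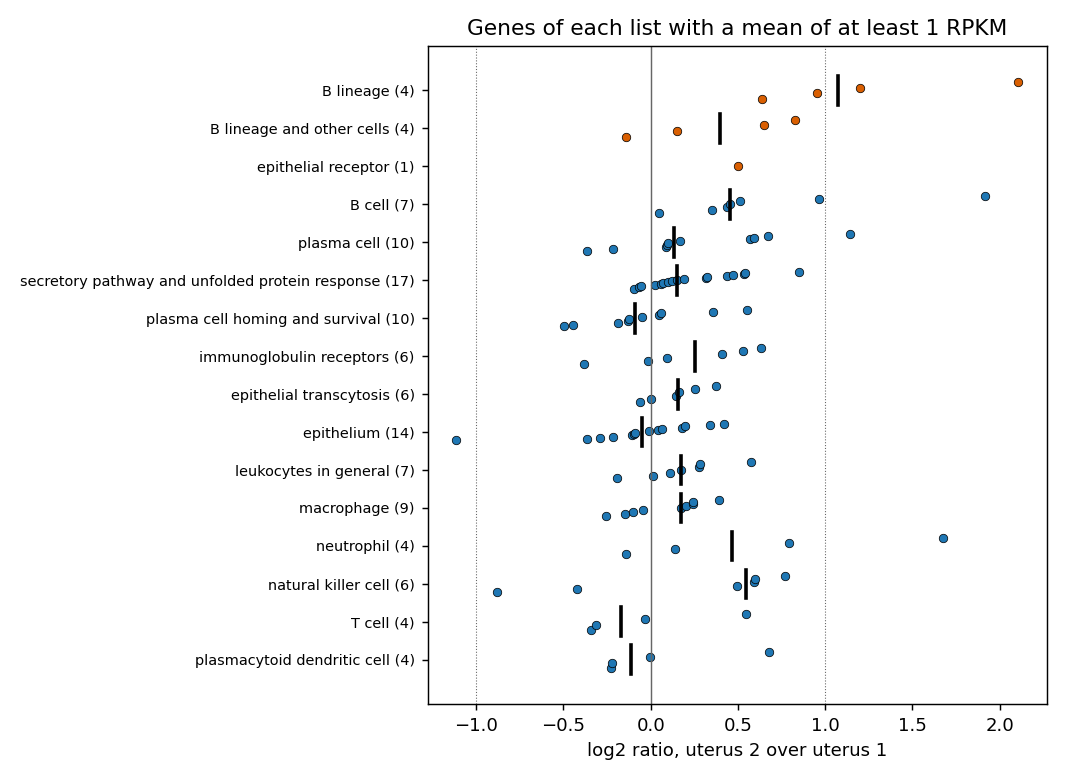
Log2 ratio of uterus 2 over uterus 1 for the genes of each list with a mean of at least 1 RPKM (number in brackets), with a bar at the median for lists of at least 4 such genes and dotted lines at 2-fold. The 4 B lineage genes run from 0.64 to 2.11, and the 14 epithelial genes run from -1.12 to 0.42. The B lineage genes were selected with their ratios known.

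Genes for signals that draw and keep plasma cells in a mucosa went both ways between the uteri. Of 19 homing and survival genes, 10 averaged 1 RPKM or more, with 4 higher and 6 lower in uterus 2 and a median log2 ratio of -0.09. Over all 19 genes, 7 were higher and 8 lower, and 4 were listed at 0 in both. Cxcl12, a chemokine that holds plasma cells in tissue, lay at 27.7 and 25.4 RPKM, and Tnfsf13b (BAFF), a B cell survival factor, at 5.38 and 4.70 RPKM. Vcam1, the endothelial ligand of integrin alpha 4, lay at 6.68 and 4.70 RPKM, a 0.704-fold ratio (0.505 to 0.978). Itgb1 lay highest in the list at 158 and 163 RPKM. Itgb7, the integrin chain of mucosal lymphocytes, lay at 4.88 and 7.21 RPKM on 50 and 82 reads, a 1.48-fold ratio (1.03 to 2.14). Ccl28, a mucosal chemokine for plasma cells, was listed at 0 in both uteri, while its receptor Ccr10 lay at 2.87 and 2.997 RPKM. Madcam1 and Il10 were also listed at 0 in both, and Il6 held 3 reads in uterus 1 and was listed at 0 in uterus 2. A listed 0 is not read as absence.

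Of 7 other genes for immunoglobulin receptors, 4 lay above Pigr in both uteri and 3 lay below it. Fcgrt, the neonatal Fc receptor that carries immunoglobulin G, lay at 48.0 and 51.2 RPKM. Fcer1g, a signalling chain of Fc receptors, lay at 17.0 and 24.6 RPKM, and Fcgr3 lay at 7.90 and 12.3 RPKM, a 1.56-fold ratio (1.05 to 2.35). Fcgr2b, an inhibitory Fc receptor, lay at 8.43 and 11.2 RPKM. Below Pigr, Fcgr1 lay at 4.63 and 3.54 RPKM and Fcgr4 at 2.09 and 2.07 RPKM. Fcamr, a receptor for immunoglobulins A and M, was listed at 0 in uterus 1 and held 3 reads in uterus 2. Of the 7 genes, 6 averaged 1 RPKM or more, with 4 higher and 2 lower in uterus 2 and a median log2 ratio of 0.25, against 0.41 over all 7.

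Epithelial markers went both ways between the uteri. Of 14 epithelial genes, 6 were higher and 8 lower in uterus 2, with a median log2 ratio of -0.05 and a summed level of 669 RPKM in uterus 1 and 658 RPKM in uterus 2. Wfdc2, a secreted protease inhibitor, lay at 174 and 149.7 RPKM, Cldn3 at 126 and 117 RPKM, and Krt18 at 70.4 and 94.3 RPKM. Cldn4, a tight junction gene, went furthest the other way, at 11.4 and 5.19 RPKM on 79 and 40 reads. Among genes of the vesicle route that Pigr takes, Rab11a lay at 35.6 and 39.4 RPKM, Rab25, a Rab of epithelial recycling vesicles, at 6.64 and 8.64 RPKM, and Myo5b at 5.26 and 5.90 RPKM. Rab11b went the other way, at 17.2 and 16.5 RPKM. Of the 8 vesicle genes, 6 averaged 1 RPKM or more, with 4 higher and 2 lower in uterus 2 and a median log2 ratio of 0.16. Over all 8, 5 were higher and 3 lower, with a median of 0.12.

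Markers of other leukocytes went both ways between the uteri. The 7 general leukocyte genes had a summed level of 129 and 146 RPKM and a median log2 ratio of 0.18, with Ptprc (CD45) at 17.7 and 21.6 RPKM. The 9 macrophage genes had a median of 0.17, with 5 higher and 4 lower in uterus 2. C1qa differed most, at 61.0 and 80.1 RPKM, and Cd14 went furthest the other way, at 31.9 and 26.7 RPKM. The summed level of the 10 T cell genes was 15.9 and 14.9 RPKM, with a median of -0.17, and Cd3e held 7 and 6 reads. Cd6, a T cell surface receptor, held 2 and 9 reads, a 4.05-fold ratio (0.839 to 38.6). The 6 natural killer cell genes had a summed level of 15.9 RPKM in uterus 1 and 16.9 RPKM in uterus 2. Their median log2 ratio was 0.54, above that of the B cell list, on 4 higher and 2 lower genes. With a pseudocount of 1 RPKM the natural killer cell median was 0.33 and the B cell median 0.30, so this order is not read. The 8 neutrophil genes had a summed level of 11.9 and 18.2 RPKM, of which Retnlg made up 6.43 and 11.2 RPKM, and Elane, Ngp and Camp were listed at 0. S100a9 held 1 and 4 reads, a 3.60-fold ratio (0.357 to 177). The neutrophil median was 0.46 over the 4 genes averaging 1 RPKM or more and 0 over all 8. S100a9 passed this filter through uterus 2, so nothing is read from these 4. The general leukocyte, macrophage and natural killer cell medians were positive and were the same without a filter. A positive median was thus not particular to the B cell list. Plasmacytoid dendritic cells can carry some of these B lineage transcripts. Their marker Siglech lay at 1.74 and 2.84 RPKM on 16 and 29 reads, Tlr7 at 2.65 and 2.26 RPKM, and the summed level of the 7 genes was 7.31 and 8.86 RPKM. The part of these cell types in the Igj ratio was not tested.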

How the data were processed

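Poly-A RNA of 2 whole uteri was sequenced, 1 library each. Per the labels and the deposited design text, the authors normalized each gene to RPKM; the submitters' processing notes name TopHat, edgeR and build mm9. Program versions, the annotation release and strand use are not given in the sources used here. Every value column matched a library. Deposited starts were read as counted from 0. Reads were recovered with Python 3.11.15 (numpy 2.4.6, scipy 1.17.1): totals were fitted on single-exon genes, where 96.0% of 646 values (uterus 1) and 95.5% of 649 (uterus 2) fell within 0.01 of whole reads, and transcript lengths came from GENCODE M1 (NCBIM37). All 9 genes gave whole reads at an annotated length, as did 130 of 145 genes above 0 on any list. For the other 15 the reads are the smallest possible. The recovery was checked on simulated data. The 9 genes, the 14 other lists and the alternatives (pseudocount, filter, scale, detection threshold, either library left out) were chosen with earlier results of these data known. Named genes are the 9, the 5 closest to Igj in ratio and members of the lists. Up to 3 highest and 2 most different of each list were to be named. Some of these are missing, among them Creld2 and Cd53, and no natural killer cell gene is named. Further list members were named after their values were seen. No test was made, since both libraries form 1 group.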

Additional observations from a re-analysis of the deposited data

How the results depend on the processing

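No paired analysis was possible because both libraries form a single group. The log2 ratios of the 9 genes stayed within their counting intervals in all 36 cases run (pseudocounts of 0.01 and 1 RPKM, centring, TPM scale), and Igj ran from 2.09 to 2.11. The count of genes at least 2-fold apart fell from 2 to 1 with a pseudocount of 1 RPKM and to 1 with a filter at 5 RPKM, in both cases because Cd79a left it. All 9 were detected in either library alone, and 7 at 2 RPKM in both. Leaving out a library moved 3 mean levels by over 1.5 times: Igj to 53.2 RPKM without uterus 2 and 229.7 RPKM without uterus 1, and, without uterus 2, Cd79a to 1.18 RPKM and Pou2af1 to 1.32 RPKM. Of 85 alternative values of list medians, 82 kept their sign. Without a filter, the medians of the homing and survival list and of the neutrophil list went to 0, and that of the B cell list from 0.46 to 0.25. The plasmacytoid dendritic cell median reversed, from -0.11 to 0.68 without a filter, where genes of 0 to 4 reads enter. Depth limits Cd79a, Pou2af1, Derl3 and Mzb1, which rest on 6 to 33 reads a library.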

Other observations

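Among the 7311 genes averaging 10 RPKM or more, the 5 with a log2 ratio closest to that of Igj (2.11) were Slpi at 2.003, Pcdhb9 at 1.95, Snord43 at 2.30, Snord99 at 1.93 and Gm3002 at 1.74. This likeness is over 2 libraries, and the 5 were picked by the ratio itself. Slpi, Pcdhb9 and Gm3002 also passed the 10 RPKM filter through uterus 2, so nothing is read from the likeness. Slpi, a secreted protease inhibitor of mucosal surfaces, lay at 6.55 and 26.6 RPKM on 22 and 99 reads. Snord43 held 2 and 11 reads, Snord99 held 4 and 17 and Gm3002 held 4 and 15, so these ratios are coarse. For Snord43 and Gm3002 the reads are the smallest possible.

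Transcripts of liver were listed at or near 0, apart from Ttr. Of 7 liver genes, Apoa1, Apoa2, Ahsg and Fgb were listed at 0 in both uteri, Alb and Fga held 1 read in uterus 2 alone, and Ttr, a thyroxine carrier, lay at 4.27 and 5.39 RPKM on 20 and 28 reads.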
